A study of Mus musculus with 34 samples.

Results

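The 8 genes described here build or mark the endothelial cell surface, and they were followed across all 19 open-chromatin summit lists of a study of Etv2 induction in mouse cells. They are Cdh5, Pecam1, Cldn5, Esam, Emcn, Ecscr, Plvap and Egfl7, 8 of 21631 protein-coding genes. They were chosen by name and not by a rule on measured values, but with earlier results of these data known. A summit, the single base of highest ATAC-seq signal in a peak, was assigned to a gene when it lay inside the gene or within 50 kb of it. Summits of all lists were joined into 1 position where each lay within 250 bp of the next, so a chain of summits can span more than 250 bp. The position inside Msantd2 near Esam spanned 1213 bp. Each position was recorded as present in or absent from each list, wherever in the position that list's summit lay. The 8 genes held 137 of the 117928 positions near protein-coding genes. Cdh5 had 23, Pecam1 19, Cldn5 8, Esam 15, Emcn 8, Ecscr 14, Plvap 30 and Egfl7 20.

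Endothelial cells are joined side to side by adherens junctions, whose adhesive molecule is VE-cadherin, and by tight junctions, in which claudin-5 closes the gap between neighbouring cells. Immunoglobulin-like adhesion molecules such as PECAM-1 and ESAM sit at the same contacts, and sialomucins and stalked membrane proteins mark the vessel surface. ETS transcription factors, the family of Etv2, are known to bind enhancers of many endothelial genes, and Etv2 is required for the vessel and blood lineages of the mouse embryo. ATAC-seq marks DNA that a transposase can reach, so it reports open chromatin and not transcription.

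The mouse embryonic fibroblasts (MEF) are called iHA-Etv2 MEF in the labels, Etv2 was induced with doxycycline, and the series describes such induction in all the cell systems. No label names the transgene in the embryoid bodies. MEF without knockdown were taken uninduced on day 0 and after 1, 2 and 7 days with doxycycline. On day 7 a further group was positive for Flk1, the VEGF receptor encoded by Kdr. MEF with knockdown of Brg1, the ATPase of the SWI/SNF chromatin remodelling complex, were taken with and without doxycycline on days 1, 2 and 7, and without it on day 0. Embryoid bodies (EB), clumps of embryonic stem cells left to differentiate, carry a 12 h time label and were taken with doxycycline and Flk1 positive, with doxycycline and not labelled Flk1 positive, and without doxycycline. Brg1-floxed EB of day 4, labelled with doxycycline, were taken with or without 4-hydroxytamoxifen (4OHT), a tamoxifen metabolite that activates recombinases fused to an oestrogen receptor domain. The series describes EB of that day as Brg1 knockout. No label gives the cell line or clone, the knockdown reagent, the recombinase or the embryos behind a MEF preparation.

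The 34 samples form 17 groups of 2. In 15 groups both replicates point to a single list, so those comparisons have no replicate error and no p-value, and the exact Clopper-Pearson 95% intervals given for shares cover counting error only. Only the 4 floxed EB samples come with their own lists. Lists held between 11188 summits in knockdown MEF without doxycycline on day 7 and 85498 in EB without doxycycline, and a longer list has more chances to hold any position. Fibroblast marker genes had 43, 23, 8 and 3 summed positions in MEF on days 0, 1, 2 and 7 and 10 in Flk1-positive MEF. The fall was not particular to them. On the same days endothelial markers outside the 8 genes had 35, 32, 13 and 8, with 15 in Flk1-positive MEF. Blood markers had 36, 28, 8 and 1, with 8 in Flk1-positive MEF, and pluripotency markers 20, 13, 9 and 4, with 7. All 7 fibroblast markers had positions in uninduced MEF, but all 7 also had positions in the 3 EB lists from 12 h. Of 5 pluripotency genes, all had positions in every EB and floxed EB list, and Sox2 had none in any MEF or knockdown list. Pou5f1 and Nanog, however, had positions in every MEF and knockdown list, 8 and 9 in uninduced MEF, where Zfp42 had 2 and Dppa5a 1. Endothelial markers outside the 8 genes had 46 summed positions in Flk1-positive EB, 64 in EB with doxycycline and 50 in EB without it. Each of the 6 had at least 1 position in all 3. In MEF on day 7, 2 of those 6, Kdr and Flt1, had no position, against none missing in Flk1-positive MEF. Peak names fall into 3 processing directories, one for MEF without knockdown and the 12 h EB, another for knockdown MEF and one more for floxed EB. Knockdown therefore cannot be told apart from processing, and neither can a floxed EB from a 12 h EB.

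Promoter sequences were on hand for 3 of the 8 genes, as 5 RefSeq windows (GRCm38.p6, the assembly called mm10) that run from 250 bases before to 50 after an annotated start. Of these, 4 are printed 5′ to 3′, all on the + strand. Capitals mark the ETS letters CCGGAA or CAGGAA on either strand. The Cldn5 window, chr16:18776597-18776896, is shown because it alone held a summit. The Emcn window, chr3:137340828-137341127, and the window at the first Egfl7 start, 26581083 (chr2:26580833-26581132), are shown because they carry ETS letters and held none. The window at the third Egfl7 start, 26586636 (chr2:26586386-26586685), is shown because a position of 13 lists lies just downstream.
Cldn5: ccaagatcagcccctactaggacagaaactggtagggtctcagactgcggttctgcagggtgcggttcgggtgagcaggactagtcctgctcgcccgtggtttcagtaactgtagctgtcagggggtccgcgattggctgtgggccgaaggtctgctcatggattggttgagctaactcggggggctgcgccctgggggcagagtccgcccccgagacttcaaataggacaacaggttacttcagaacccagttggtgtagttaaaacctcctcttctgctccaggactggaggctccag
Emcn: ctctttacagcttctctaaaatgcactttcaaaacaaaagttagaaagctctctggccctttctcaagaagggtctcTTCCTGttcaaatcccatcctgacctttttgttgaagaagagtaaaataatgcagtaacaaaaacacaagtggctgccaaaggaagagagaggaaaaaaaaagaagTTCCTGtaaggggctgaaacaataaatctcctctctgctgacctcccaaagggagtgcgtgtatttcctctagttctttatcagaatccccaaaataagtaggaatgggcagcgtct
Egfl7 start at 26581083: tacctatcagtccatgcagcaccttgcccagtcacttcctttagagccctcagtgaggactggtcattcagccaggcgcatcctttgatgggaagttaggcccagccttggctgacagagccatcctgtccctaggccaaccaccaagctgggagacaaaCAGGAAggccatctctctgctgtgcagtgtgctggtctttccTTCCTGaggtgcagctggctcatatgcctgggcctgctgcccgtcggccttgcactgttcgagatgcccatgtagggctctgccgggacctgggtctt
Egfl7 start at 26586636: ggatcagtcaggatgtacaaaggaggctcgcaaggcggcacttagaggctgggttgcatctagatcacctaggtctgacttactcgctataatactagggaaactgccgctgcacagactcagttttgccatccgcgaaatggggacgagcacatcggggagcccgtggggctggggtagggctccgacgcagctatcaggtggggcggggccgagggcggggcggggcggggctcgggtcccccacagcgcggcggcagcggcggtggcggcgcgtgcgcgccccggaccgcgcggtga

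The Cldn5 window held a summit in 4 of 19 lists. In Flk1-positive EB it lay 53 bp from the annotated start, in EB with doxycycline and in EB without it 61 bp, and in the first floxed list without 4OHT 52 bp. In every MEF and knockdown list the nearest summit was 12049 bp or more away. The window contains neither ETS letter string. Of all 32619 promoter windows, 41.3% contain at least one of them, and between 26.5% and 28.4% held a summit in the 3 EB lists from 12 h. The Emcn window contains CAGGAA at 2 places, one of them within AACAGGAA, the letters of a composite Forkhead and ETS element, which 2.65% of all windows contain. No list had a summit closer than 8260 bp to the Emcn start. The window of the first Egfl7 start also contains CAGGAA at 2 places and AACAGGAA at 1, and no list had a summit within 2498 bp of that start. The window of the third Egfl7 start, 67.3% G and C, contains no ETS letters and contains the SOX letters ACAAAG once, which 18.7% of all windows contain. Summits lay between 57 and 436 bp from that start in 13 lists, all just beyond the window. The letters AGATAA of GATA factors, ACAATG of SOX factors and TGANTCA of AP-1 were absent from all 5 windows and present in 11.2%, 12.2% and 7.85% of all windows. A match or its absence describes these windows only.

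Most open positions around the 8 genes lay outside the genes themselves, where the search took in flanks on both sides of each gene. Of 137 positions, 24 lay inside one of the 8 genes or within 1 kb of its ends, 35 at the ends of other genes, 24 inside other genes and 54 between genes. No position of the 24 was present in 17 or more lists, whereas 10 of the rest were, and all 10 lay inside or at the ends of other genes. Neither split was computed over all protein-coding genes. Whether the 8 genes differ from other genes in this was therefore not tested. The 2 positions found in all 19 lists were at the shared ends of Cdc45 and Ufd1 near Cldn5 and inside Msantd2 near Esam. The most widely shared position near Pecam1, at the end of Tex2, was in 18 lists. Near Plvap, positions inside Abhd8, at the ends of Abhd8 and Mrpl34 and at the end of Mvb12a were in 18 lists each. Near Ecscr, positions inside Dnajc18 and at the end of Ube2d2a were in 17 each. The most widely shared position lay near Egfl7 at the end of Agpat2 in 16, and near Cdh5 at the end of Bean1 in 14. Emcn had no such neighbour. Its most shared position, below the gene at 137293378, was in 7 lists. A total of 48 positions were in 1 list only, and the median position was in 2.

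**Figure D1:**
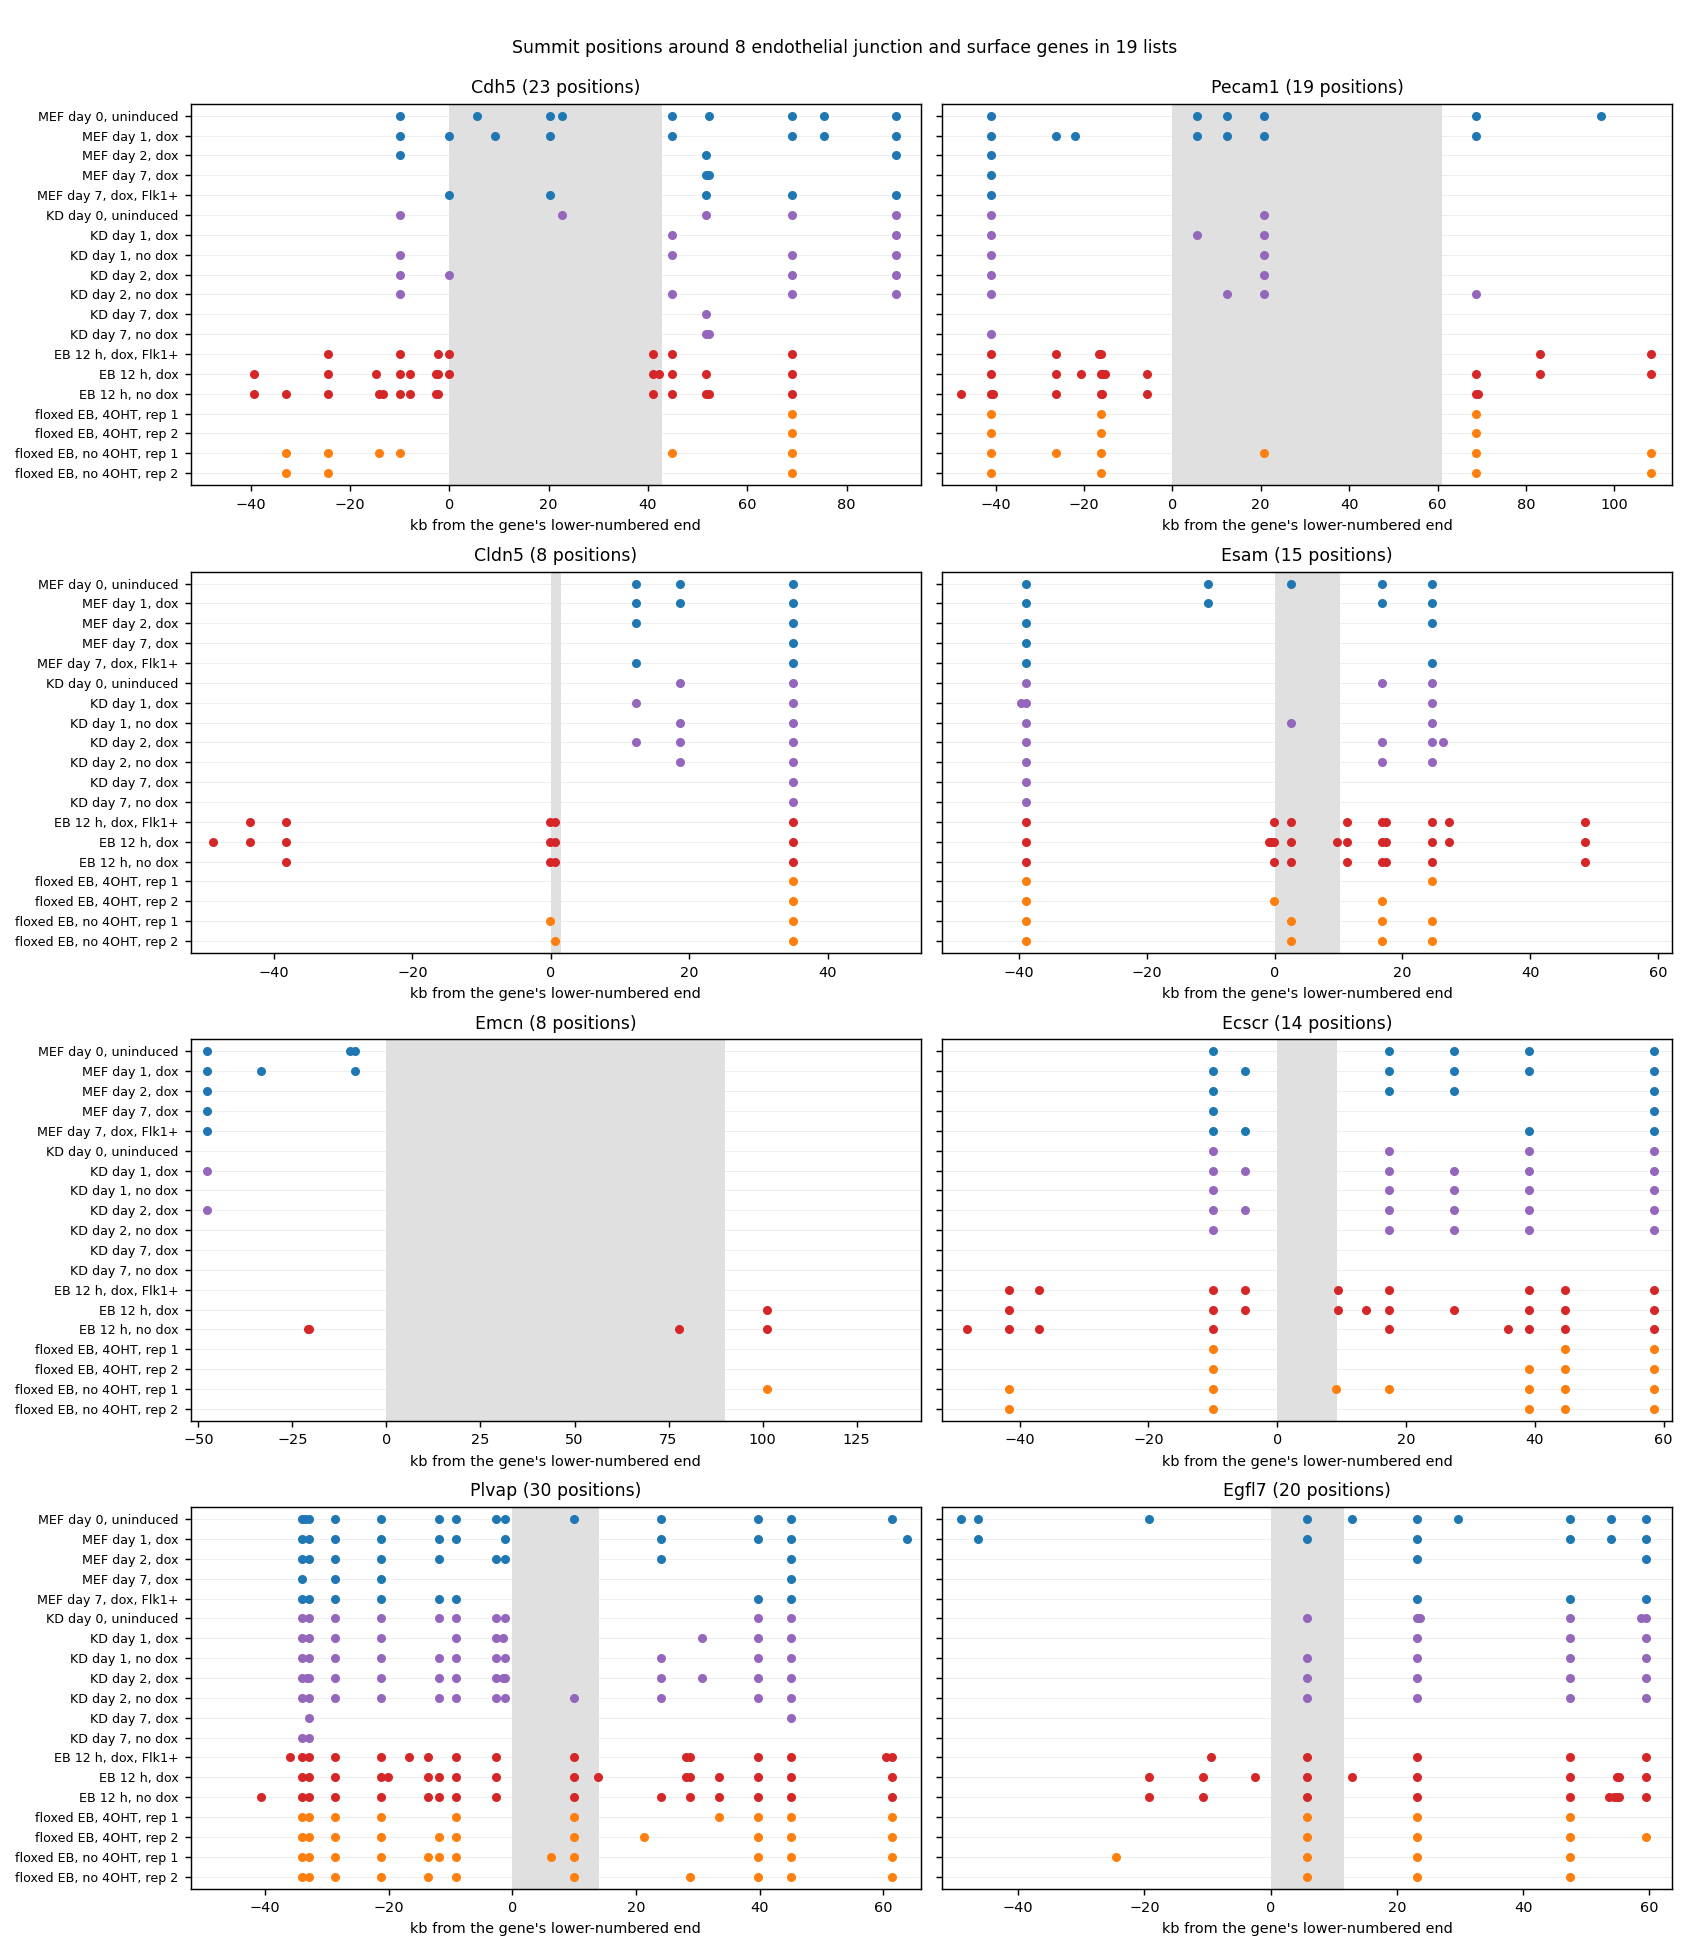
Positions around each gene (points) by distance in kb from the lower-numbered gene end (x axis) in each of 19 lists (y axis), with the gene shaded and blue for MEF, purple for knockdown MEF, red for 12 h EB and orange for floxed EB. Points that repeat down the page lie mostly outside the shaded genes, and the Emcn gene body held a single position.

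Positions split by cell system. Of the 137, 67 (48.9%) were only in EB or floxed EB lists, 31 (22.6%) only in MEF or knockdown lists and 39 (28.5%) in both. Over all positions near protein-coding genes the shares were 40.8%, 36.1% and 23.2%. At the ends of the 8 genes 10 of 11 positions were only in EB or floxed EB lists, against 27.3% of positions at the ends of any protein-coding gene. Inside the 8 genes 3 of 13 were, against 42.5% of positions inside any gene. Of the 11 positions at the ends, 6 were in 1 list only, an EB or floxed EB list, at scores of 2.17 to 5.05. The lists of EB with and without doxycycline were also the longest of the 19. Ecscr had no position found only in MEF or knockdown lists, and Emcn had none common to both systems. At least 1 list of each of the 4 sets, MEF, knockdown MEF, 12 h EB and floxed EB, held 27 of the 137 positions.

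**Figure D2:**
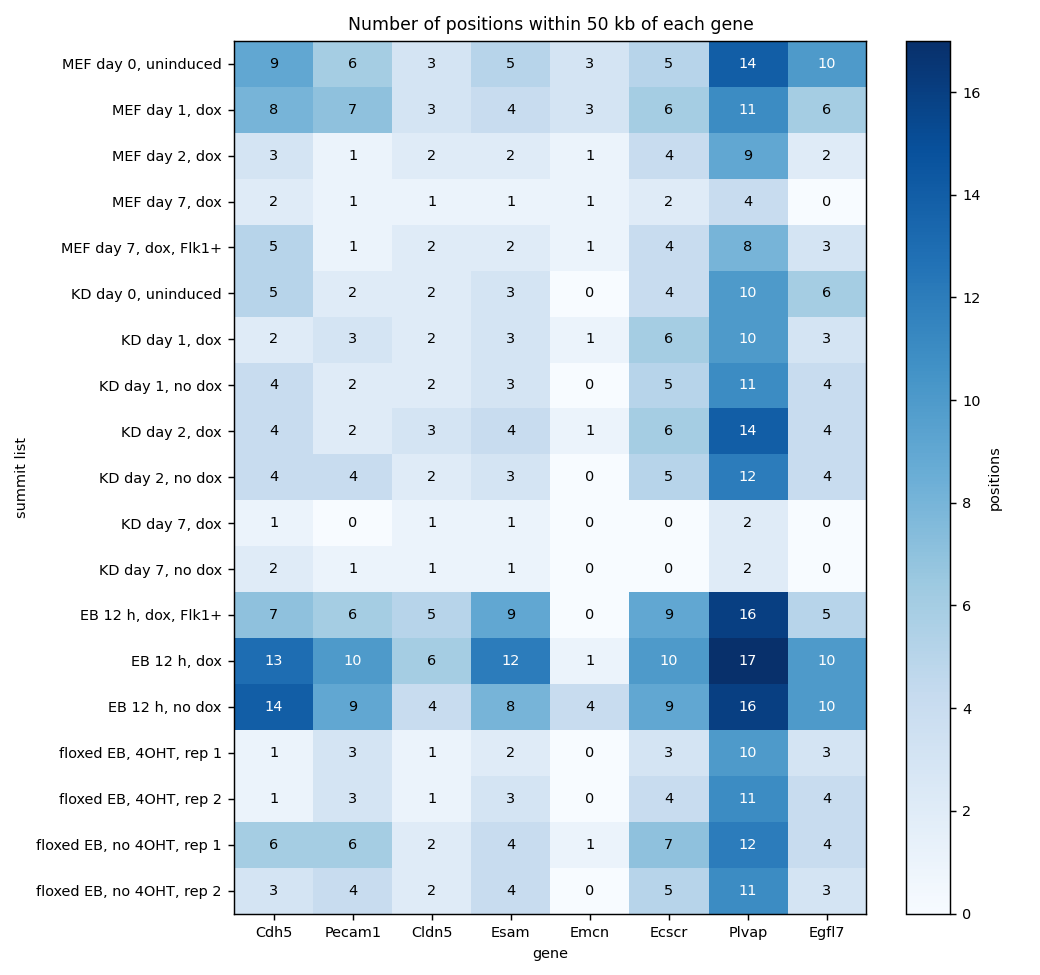
Number of positions (cell value and shade) within 50 kb of each gene (x axis) in each summit list (y axis), 1 list per group except floxed EB. Plvap has the most positions, or shares the highest number, in each of the 19 rows, and Emcn has at most 4 in any row.

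Cdh5 encodes VE-cadherin. Its interval is chr8:104101613-104144504. It had 9, 8, 3 and 2 positions in MEF on days 0, 1, 2 and 7 and 5 in Flk1-positive MEF. In EB it had 7 in the Flk1-positive list, 13 with doxycycline and 14 without. A position at its lower end, chr8:104101589-104101806, spanned the annotated boundary. It was present in MEF with doxycycline on day 1, in Flk1-positive MEF, in knockdown MEF with doxycycline on day 2, in EB with doxycycline and in Flk1-positive EB. It was absent from all 6 lists of MEF, knockdown MEF and 12 h EB without doxycycline, but also from 4 of the 9 lists with it and from all 4 floxed EB lists, which are labelled with doxycycline. The nearest summit was 5673 bp away in uninduced MEF and 2333 bp away in EB without doxycycline. Its score, the authors' −log10 q for the peak, was 18.24 in EB with doxycycline, 8.61 in Flk1-positive EB, 5.35 in Flk1-positive MEF, 2.48 in knockdown MEF on day 2 and 1.88 in MEF on day 1. Only the EB score placed it above the middle of its list, at 39.4% from the top. With scores of 10 or more required, it was in 1 list, and with all lists cut to the length of the shortest it was in 0.

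Inside Cdh5, the position at 104121982 was in uninduced MEF, in MEF on day 1 and in Flk1-positive MEF and in no other list. Its scores there were 27.36, 12.96 and 2.53. The position at 104142591, near the upper end, was in all 3 EB lists from 12 h and in no other. One Cdh5 position, 8773 bp above the gene at 104153277, was absent from uninduced MEF and present in MEF on days 2 and 7 and in Flk1-positive MEF. It was also in uninduced knockdown MEF, in both knockdown lists of day 7 and in EB with and without doxycycline, so it was not tied to doxycycline. A neighbouring summit lay 601 bp away in uninduced MEF, and joining summits within 500 bp left no gained position on days 2 and 7.

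Pecam1 encodes PECAM-1 (CD31), an adhesion molecule of endothelial contacts, platelets and leukocytes. Its interval is chr11:106654213-106715281. It had 6, 7, 1 and 1 positions in MEF on days 0, 1, 2 and 7 and 1 in Flk1-positive MEF. In EB, 6 positions were in the Flk1-positive list, 10 in that with doxycycline and 9 in that without. All 3 positions inside the gene were in uninduced MEF and in MEF on day 1, and none was in a later MEF list or a 12 h EB list. The most widely shared of them, at 106674986, was in 8 lists, of which 7 were MEF or knockdown lists and the other floxed EB without 4OHT. Below the gene, the position at 106637976 was in all 7 EB and floxed EB lists and in no MEF or knockdown list. Its scores were 17.72 in Flk1-positive EB, 37.16 in EB with doxycycline and 33.14 in EB without. Above the gene, 106737343 and 106762584, the last inside Milr1, were in both induced EB lists and not in EB without doxycycline. The position in Milr1 was also in both floxed EB lists without 4OHT and in neither with it. Its scores in those 4 lists lay between 2.85 and 5.6.

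Cldn5 encodes claudin-5, and its interval is chr16:18776847-18778262. It had 3, 3, 2 and 1 positions in MEF on days 0, 1, 2 and 7 and 2 in Flk1-positive MEF. None of these lay within 10 kb of the gene. In EB it had 5 in the Flk1-positive list, 6 with doxycycline and 4 without. The 2 positions at the gene, centred at 18776790 in the printed window and at 18777412 in the gene, were in all 3 EB lists from 12 h and in no MEF or knockdown list. The score of the start position was 20.0 in Flk1-positive EB, 39.43 in EB with doxycycline and 24.15 in EB without, so the position was there without induction. Scores grow with depth, so scores given for several lists are description only and their differences were not tested. A further position, below the gene at 18733350, was in both induced EB lists, at scores of 16.13 in EB with doxycycline and 8.62 in Flk1-positive EB, and not in EB without doxycycline.

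Esam encodes an adhesion molecule of endothelial tight junctions and platelets, and its interval is chr9:37528089-37538319. It had 5, 4, 2 and 1 positions in MEF on days 0, 1, 2 and 7 and 2 in Flk1-positive MEF. Flk1-positive EB held 9, EB with doxycycline 12 and EB without it 8. Of its 15 positions, EB with doxycycline held 12, gaining 4 and losing none. The position at its lower end, 37527992, was in all 3 EB lists from 12 h and in the second floxed list with 4OHT. Another 3 at its ends, at 37527245, 37527576 and 37537874, were in EB with doxycycline only, with scores of 5.05, 2.46 and 2.17. A summit of EB without doxycycline lay 807 bp from 37527245 and 476 bp from 37527576. The position at 37530659 inside the gene was in all 3 EB lists, in both floxed lists without 4OHT, in uninduced MEF and in knockdown MEF without doxycycline on day 1. It was in no induced MEF or knockdown list.

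Emcn encodes endomucin, a sialomucin of venous and capillary endothelium, and its interval is chr3:137341062-137431069. It had 3, 3, 1 and 1 positions in MEF on days 0, 1, 2 and 7 and 1 in Flk1-positive MEF. In EB it had 0 in the Flk1-positive list, 1 with doxycycline and 4 without. The most widely shared Emcn position, at 137293378, was in all 5 MEF lists and in the knockdown lists with doxycycline of days 1 and 2. It was in none of the 4 knockdown lists without doxycycline and in no EB list. Its scores in MEF were 65.34, 53.67, 15.71 and 5.18 on days 0, 1, 2 and 7.

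Plvap encodes the protein of the diaphragms that close endothelial fenestrae and caveolae, and its interval is chr8:71497753-71511806. It had 14, 11, 9 and 4 positions in MEF on days 0, 1, 2 and 7 and 8 in Flk1-positive MEF. The Flk1-positive EB list held 16, the list of EB with doxycycline 17 and the list without it 16. The position inside the gene at 71507762 was in 9 lists, among them all 7 EB and floxed EB lists. Its scores were 31.95 and 42.53 with 4OHT and 17.49 and 20.83 without it, and 22.94, 44.85 and 28.35 in Flk1-positive EB, EB with doxycycline and EB without. In the MEF and knockdown lists that held it, uninduced MEF and knockdown MEF without doxycycline on day 2, the scores were 2.31 and 2.21. Most of the remaining Plvap positions lay in neighbouring genes.

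Egfl7 encodes a secreted protein of the vessel wall matrix, and its interval is chr2:26581083-26592682. It had 10, 6, 2 and 0 positions in MEF on days 0, 1, 2 and 7 and 3 in Flk1-positive MEF. In EB it had 5 in the Flk1-positive list, 10 with doxycycline and 10 without. The position at 26586805, by the third annotated start, was in all 7 EB and floxed EB lists and in uninduced MEF and MEF on day 1. It was also in uninduced knockdown MEF, in knockdown MEF without doxycycline on days 1 and 2 and with it on day 2. Its scores were 14.27 to 34.35 in the EB and floxed EB lists and 2.53 to 7.43 in the MEF and knockdown lists.

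Ecscr encodes a sialomucin-like receptor of endothelial cells, and its interval is chr18:35713086-35722413. It had 5, 6, 4 and 2 positions in MEF on days 0, 1, 2 and 7 and 4 in Flk1-positive MEF. In EB it had 9 in the Flk1-positive list, 10 with doxycycline and 9 without. A position below the gene, chr18:35708001-35708077, lay at an end of the neighbour Dnajc18. It was in MEF with doxycycline on day 1, Flk1-positive MEF, knockdown MEF with doxycycline on days 1 and 2, EB with doxycycline and Flk1-positive EB. No list of MEF, knockdown MEF or 12 h EB without doxycycline held it, and no floxed EB list did. Of the lists with doxycycline, those of MEF on days 2 and 7 and of knockdown MEF on day 7 also lacked it. The scores were 27.58 in EB with doxycycline, 21.5 in Flk1-positive EB, 9.69 in MEF on day 1, 8.12 in Flk1-positive MEF, and 2.3 and 6.91 in knockdown MEF on days 1 and 2. With scores of 10 or more required it was in the 2 EB lists only. With equal list lengths it was in 0. A further position 112 bp above the upper gene end, at 35722525, was in both induced EB lists, with scores of 1.81 in Flk1-positive EB and 4.43 in EB with doxycycline, and not in EB without doxycycline.

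The Cdh5 lower-end position and the Dnajc18-end position near Ecscr were the 2 of 137 (1.46%) that a doxycycline list of all 3 of MEF, knockdown MEF and 12 h EB held and none of the 6 lists without doxycycline did. Over all positions near protein-coding genes this held for 272, or 0.231%. They were also the 2 positions that both Flk1-positive lists held and neither uninduced list did. That count uses only lists already in the first one, and no share over all positions was computed for it. With 2 positions, no more can be said of the group.

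**Figure D3:**
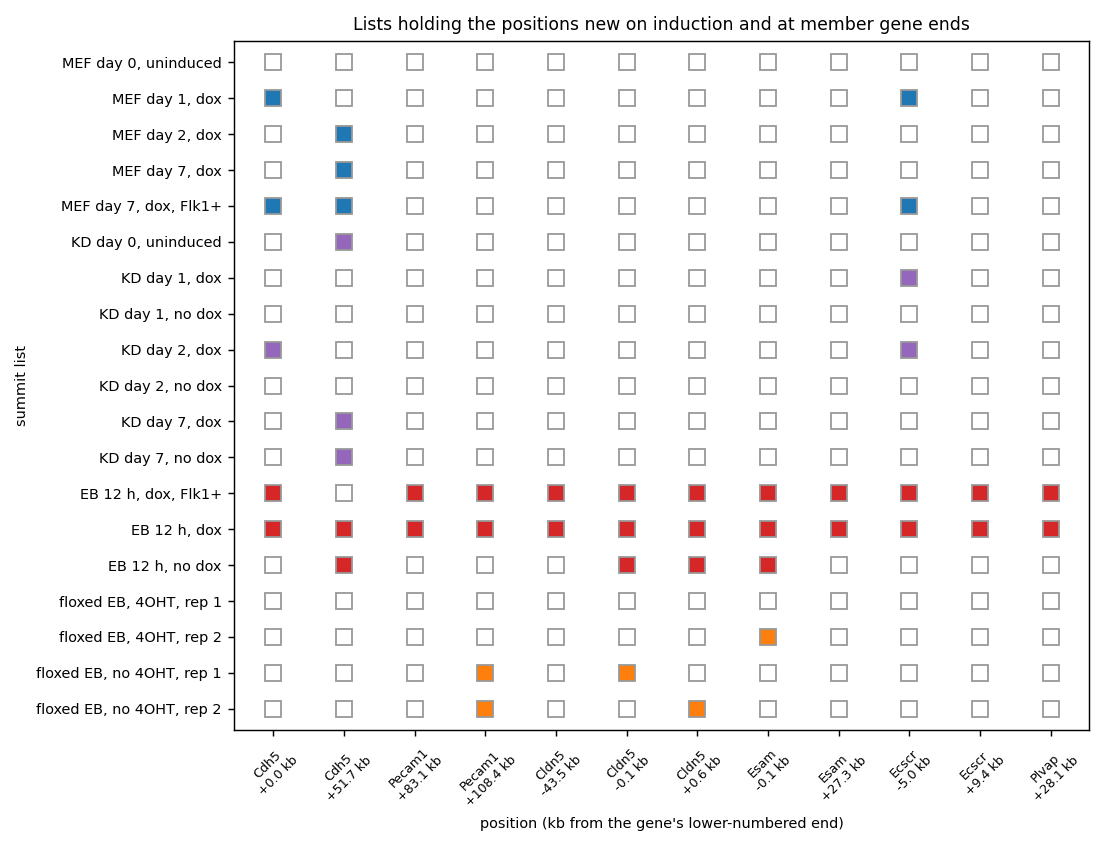
Presence (filled square) or absence (open square) in each of 19 lists (y axis) of the positions new in at least 2 induced lists of MEF or of EB and of the positions at the 8 genes' ends found in more than 1 list, by distance in kb from the lower-numbered gene end (x axis). The Cdh5 position at the gene start and the Ecscr position nearest below the gene are filled in some induced MEF and knockdown MEF lists and in both induced EB lists. They are open in MEF with doxycycline on days 2 and 7, in knockdown MEF with it on day 7, in every list without doxycycline and in floxed EB.

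In MEF, lists were shorter after induction, and from day 2 on all 8 genes had fewer positions than in uninduced MEF. Of 55 positions in uninduced MEF, 14 (25.5%, interval 14.7 to 39.0) were lost on day 1, against 34.7% of all positions near genes. On day 2, 32 (58.2%, 44.1 to 71.3) were lost, against 64.3%, and on day 7, 44 (80.0%, 67.0 to 89.6), against 78.5%. Of the positions present after induction, 7 of 48 (14.6%) on day 1, 1 of 24 (4.17%) on day 2 and 1 of 12 (8.33%) on day 7 were gained, against 15.6%, 9.95% and 14.8% of all positions. Every background share fell inside the interval of the 8 genes. All 8 genes had fewer positions on day 2 than uninduced, as did 88.3% of protein-coding genes with a position in either list. Uninduced MEF had 9 positions inside the 8 genes and 0 within 1 kb of their ends. All 9 were absent on day 2. Over all genes 60.3% of positions inside a gene or within 1 kb of it were. That share also counts gene ends, so it is not a like set. None of the 9 was present on day 7. The lists of days 1, 2 and 7 held 50015, 26217 and 18418 summits and the uninduced list 62028, and per 10000 summits the 8 genes had 9.60, 9.15 and 6.52 positions after induction and 8.87 before. With equal list lengths the lost shares on days 1, 2 and 7 were 14%, 24.0% and 44.4%. All these comparisons share the uninduced list.

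Flk1-positive MEF of day 7 held more of the positions than MEF of day 7 that were not labelled Flk1 positive. They had 26, against 12, in lists of 29520 and 18418 summits. Of the 26, 15 (57.7%, 36.9 to 76.6) were absent from the other list, against 52.2% of all positions, and 1 of 12 (8.33%) was lost, against 14.5%. Of the 8 genes, 6 had more positions in Flk1-positive cells, and Pecam1 and Emcn had equal numbers. Over all genes 67.6% had more. Inside the 8 genes or at their ends, Flk1-positive MEF held 2 positions, both at Cdh5, and the other list held none. Relative to uninduced MEF, Flk1-positive MEF gained 3 of 26 (11.5%), against 16% of all positions, and lost 32 of 55 (58.2%), against 62.0%. In unsorted cells a list cannot tell fewer cells with an open site from less opening in each cell.

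In MEF with Brg1 knockdown, the share of the 8 genes' positions lost on day 2 moved with the processing. Of 34 positions without doxycycline, 4 (11.8%, 3.30 to 27.5) were lost with it, against 32.9% of all positions, which lies above that interval, 1 of 24 shares compared in this way. The intervals make no allowance for the number of shares compared. The lost share of the 8 genes was 28.6% with windows of 10 kb, 26.3% with joining at 100 bp and 21.1% with scores of 10 or more. It was 12.1% with joining at 500 bp and 9.38% with equal list lengths. The share over all positions was not recomputed under these settings, so whether the gap to it held under them was not tested. Of 38 positions with doxycycline, 8 (21.1%) were gained, against 23.7%. In all, 5 genes had more positions with doxycycline, against 24.1% of all genes, and only Pecam1 had fewer, 2 against 4, where 41.2% of all genes did. Plvap had 14 against 12, Ecscr 6 against 5, Esam 4 against 3, Cldn5 3 against 2 and Emcn 1 against 0. On day 1, 7 of 30 (23.3%) were gained, against 16.4%, and 8 of 31 (25.8%, 11.9 to 44.6) were lost, against 39.5%. On day 7 the lists held 5 positions with doxycycline and 7 without, so that 1 of 5 (20.0%) was gained, against 39.1%, and 3 of 7 (42.9%) were lost, against 30.0%. The day 7 lists, of 13644 and 11188 summits, had no position inside the 8 genes or at their ends. Uninduced knockdown MEF held 32 positions, against 55 in uninduced MEF without knockdown. In that comparison 3 of 32 (9.38%) were gained, against 15.3%, and 26 of 55 (47.3%) lost, against 48.3%, in lists made in different processing directories. Whether knockdown changed the response to induction was not tested.

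In EB, doxycycline came with more positions at the 8 genes while the whole list was shorter. EB with doxycycline held 79 positions in 77987 summits, against 74 in 85498 summits without it. Of the 79, 22 (27.8%, 18.3 to 39.1) were gained, against 19.3% of all positions, and of the 74, 17 (23.0%, 14 to 34.2) were lost, against 26.5%. Both background shares lay inside the intervals. In all, 5 genes had more positions, led by Esam with 12 against 8 and Cldn5 with 6 against 4, over 26.5% of all genes. Cdh5, with 13 against 14, and Emcn, with 1 against 4, had fewer, over 43.6% of all genes. Egfl7 had 10 in both. Inside the genes or at their ends the numbers were 14 with doxycycline and 8 without, with 7 of 14 gained, against 17.6% of such positions over all genes, and 1 of 8 lost, against 23.5%. The ends alone had 10 with doxycycline and 3 without, with 7 of 10 gained, against 7.23% of gene-end positions over all genes. The 7 gained positions were 1 at each of Plvap and Ecscr, 2 at Cdh5 and 3 at Esam. Those at 37527245 and 37527576 near Esam lay 807 and 476 bp from a summit of EB without doxycycline. Joining within 500 bp makes them 1 position with the Esam lower end, which that list holds. Apart from the Cdh5 lower end, at 18.24, the scores of the 7 lay between 2.17 and 5.05. With scores of 10 or more the gained share over all positions of the 8 genes was 17.5%.

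**Figure D4:**
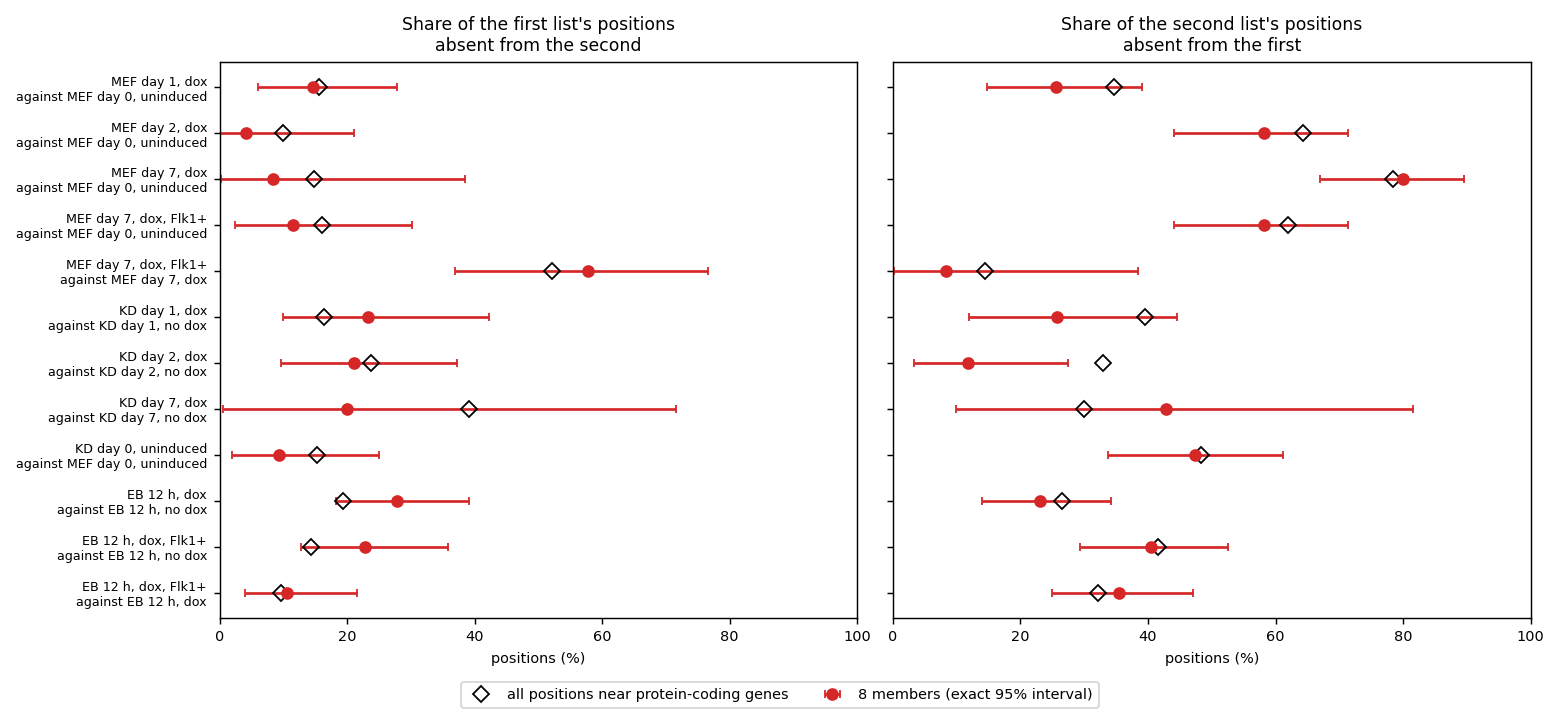
Shares in percent (x axes) of positions gained (left) and lost (right) in 12 comparisons of lists (y axis), with red points and exact 95% intervals for the 8 genes and open diamonds for all positions near protein-coding genes. The diamond lies inside the interval in all but the lost share of knockdown MEF on day 2, where it is 32.9% beside 11.8%.

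Flk1-positive EB held 57 positions in 58004 summits. Relative to EB without doxycycline, 13 of 57 (22.8%, 12.7 to 35.8) were gained, against 14.3%, and 30 of 74 (40.5%) were lost, against 41.5%. Relative to EB with doxycycline, 6 of 57 (10.5%) were gained, against 9.57%, and 28 of 79 (35.4%) were lost, against 32.2%. All 8 genes had fewer positions than in that list, as did 64.5% of all genes. Cdh5 had 7 against 13, Egfl7 5 against 10 and Pecam1 6 against 10, whereas Plvap had 16 against 17. The Cdh5 lower end, both Cldn5 positions, the Esam lower end and the Ecscr upper end were kept. Flk1-positive cells of both origins shared 20 positions. These were 76.9% of the 26 in Flk1-positive MEF (56.4 to 91.0), where 65.3% of all positions were shared, and 35.1% of the 57 in Flk1-positive EB (22.9 to 48.9), where 33.4% were.

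In Brg1-floxed EB, the 8 genes had 23 and 27 positions in the lists with 4OHT, against 42 and 32 without it. The means were 25.0 ± 2.83 with 4OHT and 37.0 ± 7.07 without (SD, n = 2 each), a difference of -12.0. The groups did not overlap, with an exact two-sided permutation p of 0.333, the smallest that 2 lists against 2 can give. Whole lists moved the same way, with 17946 and 20229 summits with 4OHT and 31436 and 23823 without. Per 10000 summits the 8 genes had 12.8 and 13.3 positions with 4OHT and 13.4 and 13.4 without it, and with equal list lengths the difference was -4.00.

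By gene, both lists with 4OHT held fewer positions than both without it for 5 of 8 genes, against 29.3% of all genes with a position. Cdh5 had 1 and 1 with 4OHT, against 6 and 3. Pecam1 had 3 and 3, against 6 and 4, and Ecscr 3 and 4, against 7 and 5. Esam had 2 and 3, against 4 and 4, and Cldn5 1 and 1, against 2 and 2. Plvap, with 10 and 11 against 12 and 11, Egfl7, with 3 and 4 against 4 and 3, and Emcn, with 0 and 0 against 1 and 0, overlapped. The single Cdh5 position left in both 4OHT lists was the one at the end of Bean1, and that of Cldn5 the one at Cdc45 and Ufd1. Of 30 positions in both lists without 4OHT, 6 (20.0%, 7.71 to 38.6) were in neither list with it, against 21.1%. Of 21 in both lists with 4OHT, 0 were absent from both lists without it, against 3.76%. Of the 79 positions in 12 h EB with doxycycline, 48.1% were in a floxed list without 4OHT, against 46.2% of all such positions.

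**Figure D5:**
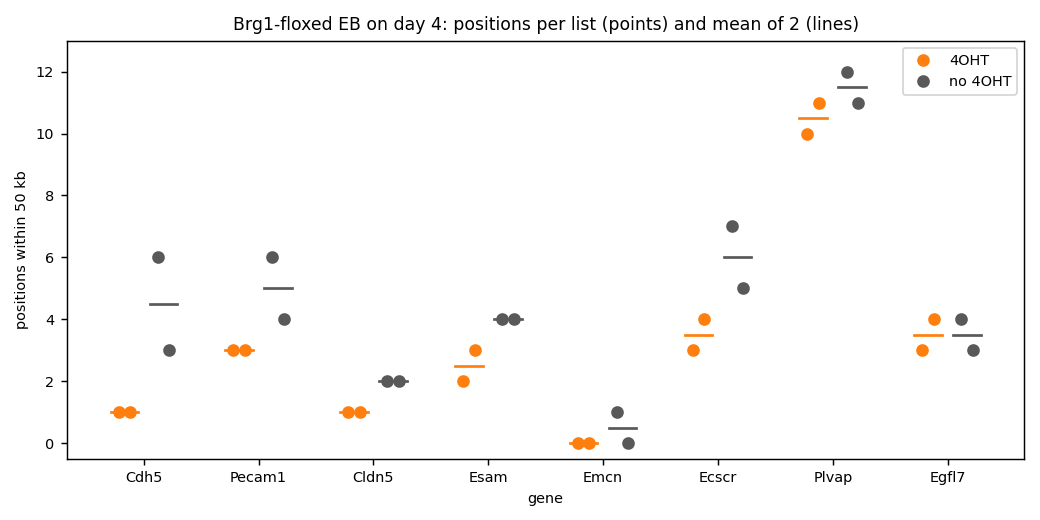
Positions within 50 kb (y axis) of each gene (x axis) in the 2 Brg1-floxed EB lists with 4OHT (orange, left) and the 2 without (grey, right), with a line at each mean. The orange points lie below the grey ones for Cdh5, Pecam1, Cldn5, Esam and Ecscr and overlap them for Emcn, Plvap and Egfl7.

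For comparison, 2 lists of related genes were counted in the same way. The 14 junction partners comprise catenins, zonula occludens proteins, junctional adhesion molecules and others that sit at cell contacts in many tissues. In EB with doxycycline against EB without, 4 of the 14 had more positions and 7 fewer. Tjp1, the scaffold ZO-1, had 12 against 10, and Jam3 had 3 against 8. Of 17 other endothelial surface genes, 3 had more and 9 fewer. Robo4, a receptor of endothelial cells, had 10 against 13, and Adgrf5 had 9 against 4. The 8 genes had 5 and 2. Over all genes with a position, 26.5% had more and 43.6% fewer. In knockdown MEF on day 2, 7 partners had more and 3 fewer with doxycycline, and 3 of the 17 surface genes had more and 10 fewer, against 5 and 1 of the 8 genes. The shares over all genes there were 24.1% with more and 41.2% with fewer. On day 2 in MEF without knockdown, all 14 partners and all 17 surface genes had fewer positions than uninduced MEF, as did 88.3% of all genes with a position.

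Scaled per 10000 summits and averaged over the 8 genes, the profile across the 19 lists was most like those of Clk2 and Hcn3 (Pearson r = 0.96 each), Tppp3 (0.95), Fzd3 and Keap1 (0.94 each), among 18650 genes compared. Positions were counted by presence in lists of unequal length, so these values describe list membership only. None of the 5 lies within 200 kb of the 8 genes.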

How the data were processed

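Open chromatin was measured by ATAC-seq in 34 samples. Reads were aligned with Bowtie2 2.2.4 to mm10 and peaks called with MACS2, with HOMER also used, per the submitters' processing notes. Trimming, duplicate and mitochondrial reads, the transposase shift and how replicates were combined are not given in the sources used here. The authors deposited summit lists whose score is a −log10 q value. All scores are at least 1.30 and grow with read depth, which was not analysed here, so lists were compared by presence. Summits on chromosomes 1 to 19 and X were joined within 250 bp and assigned to genes within 50 kb, using the RefSeq table of GRCm38.p6, which has no strand (Python 3.11.15, numpy 2.4.6, pandas 2.3.3, scipy 1.17.1, matplotlib 3.10.9). Gained and lost name list membership, not a tested change.

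The 8 genes and all lists were chosen with earlier results of these data known. Positions named by rule are the most widely shared one per gene, those absent from the uninduced list and in 2 or more induced lists of MEF or EB, at most 3 per gene, and those within 1 kb of a gene end. Others were chosen after their values were seen. Joining was tested on simulated lists. Alternatives joined at 100 or 500 bp, used 10 kb windows, kept scores of 10 or more, cut lists to equal length, or left out a floxed list. Replicates are labelled, but no label says that they come from separate cultures.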

Additional observations from a re-analysis of the deposited data

Results flagged for a closer look

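Esam had fewer positions than uninduced MEF in all 4 induced MEF lists and more than EB without doxycycline in both induced EB lists. The differences were -1, -3, -4 and -3 positions in MEF on days 1, 2 and 7 and in Flk1-positive MEF, and 4 and 1 positions in EB with doxycycline and in Flk1-positive EB. Over all genes with a position, 62.3%, 88.3%, 91.5% and 85.4% had fewer in those MEF lists. In those EB lists 26.5% and 9.07% had more. With joining at 500 bp, the positions gained at 37527245 and 37527576 in EB with doxycycline become 1 with the Esam lower end. The difference between the systems was not tested. The induced MEF lists held 18418 to 50015 summits and the uninduced one 62028, and both induced EB lists were also shorter than the list without doxycycline. With scores of 10 or more the Esam difference in EB with doxycycline was 0.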

How the results depend on the processing

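Joining within 100 bp gave a lost share of 36.6% in EB with doxycycline, a gained share of 36.5% in Flk1-positive EB against EB without doxycycline, and 28.6% gained and 47.1% lost against EB with it. Joining within 500 bp gave a gained share of 0 in MEF on days 2 and 7 and a lost share of 0 in Flk1-positive MEF against MEF of day 7. Windows of 10 kb gave lost shares of 73.9% and 91.3% in MEF on days 2 and 7, 50% gained and 87.0% lost in Flk1-positive MEF against uninduced MEF, 45.5% and 28.6% lost in knockdown MEF on days 1 and 2, and 0 gained on day 7. Positions in every set of lists then numbered 10, and 19% of Flk1-positive EB positions were in Flk1-positive MEF. The Cdh5 difference in EB with doxycycline turned to 1 and that of Pecam1 to -1.

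Scores of 10 or more gave gained shares of 0 in MEF on days 1, 2 and 7 and in Flk1-positive MEF against uninduced MEF, and lost shares of 75.9% and 96.6% on days 2 and 7. Against MEF of day 7, Flk1-positive MEF then gained 90.9% and lost 0. Knockdown MEF lost 70.6% on day 1 and gained 100% on day 7. EB with doxycycline gained 17.5% and lost 13.2%, and Flk1-positive EB gained 3.33% and lost 23.7% against EB without doxycycline and gained 0 and lost 25.0% against EB with it. Positions in every set numbered 13, and the Pecam1 difference in MEF on day 1 turned to -1.

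Equal list lengths gave lost shares of 14%, 24.0% and 44.4% in MEF on days 1, 2 and 7, 25.9% in Flk1-positive MEF and 27.3% in uninduced knockdown MEF, all against uninduced MEF, and a gained share of 0 in knockdown MEF on day 7. Flk1-positive EB lost 25.5% against EB without doxycycline, and gained 24.6% and lost 24.6% against EB with it. Positions in every set numbered 7, and 54.8% of Flk1-positive EB positions were in Flk1-positive MEF. The Cdh5 difference turned to 2 in MEF on day 1, to 2 in Flk1-positive MEF and to 1 in EB with doxycycline, and that of Egfl7 to 1 in Flk1-positive MEF. The cause of these changes was not tested.

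The floxed difference was -12.50 to -1.50 under the other settings and -17.00 to -7.00 with 1 list left out. With the replicate number as a block it was -12.00, and the smallest p that 2 pairs allow is 0.5, so the replicate block cannot pass a threshold. The same numbers are not said to mark a shared batch. No paired analysis was possible for the remaining comparisons because the replicates of each group share 1 list.

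Presence in a pooled list has no replicate error, and no read depth was analysed. A weak position can be missing from a shorter list without being closed. Most positions new on induction had scores under 10. Of the values for the comparisons under an alternative, 44 moved and 100 did not. A share moved when it left its interval, and the floxed difference when it changed direction. The number of positions in every set of lists has no interval and was judged by a fixed fold change. Of the values for single genes and named positions, 45 moved, 7 reversed and 158 did neither.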
